A study of Mus musculus with 10 samples.

Results

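The hemoglobin and erythroid genes of the liver were examined in mice injected with CD95-Ab or saline. The 6 genes are the α-globin genes Hba-a1 and Hba-a2, the β-globin genes Hbb-bs and Hbb-bt, Alas2 and Slc4a1, out of 38922 genes in the files, of which 13719 had enough counts to be tested. They were picked by name because earlier results of these data showed their levels to differ between the groups. The contrast between CD95-Ab and saline is therefore given for them as a description, without a test. The mice were wild-type male C57BL/6N, an inbred laboratory strain, aged 6 weeks, with 5 mice in each group and 1 library per mouse. CD95-Ab is an antibody that activates the death receptor Fas (CD95), and it was injected intraperitoneally at 0.5 µg/g body weight. Controls received the same volume of saline, and livers were collected at 6 h in both groups. Neither the labels nor the methods mention perfusion of the livers to remove blood.

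Hemoglobin is a tetramer of α-globin and β-globin chains, each holding heme, and fills the mature red cell. Alas2 makes the erythroid form of the first enzyme of heme synthesis, and Slc4a1 makes band 3, the anion exchanger that anchors the red cell membrane to its skeleton. The adult mouse makes red cells in bone marrow and spleen. Mature red cells have no nucleus, and the young red cells released into blood, the reticulocytes, still carry globin mRNA for a short time. CD95-Ab is used as a model of acute liver failure, in which the injured liver bleeds into its own tissue.

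Livers of mice injected with CD95-Ab held more globin mRNA than those of every saline-injected control, and the spread among them was wide. The 4 globin genes together took between 0.00353% and 0.0275% of all counts in saline-injected mice and between 0.112% and 3.0% after CD95-Ab. Alas2 and Slc4a1 were higher on average, but the liver of CD95-Ab mouse 1 was at the level of the lowest controls for both.

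The copies within each globin pair are nearly the same sequence, which bears on how far their counts can be told apart. In GENCODE mouse release 21, on the GRCm38 build, Hba-a1 (ENSMUSG00000069919) lies at chr11:32283511-32284465 and Hba-a2 (ENSMUSG00000069917) at chr11:32296489-32297298, both on the plus strand. Hbb-bs (ENSMUSG00000052305) lies at chr7:103826534-103828096 and Hbb-bt (ENSMUSG00000073940) at chr7:103812524-103813996, both on the minus strand. Both α-globin coding sequences are 429 bases long and differ at 1 base, C381T from Hba-a1 to Hba-a2, counted from the first base of the start codon. Both β-globin coding sequences are 444 bases long and differ at 1 base, C417T from Hbb-bs to Hbb-bt. The stretches around these bases, read from the GENCODE transcripts, are shown with the differing base in capitals, for coding bases 351 to 410 of the α-globin pair and 385 to 444 of the β-globin pair.
Hba-a1: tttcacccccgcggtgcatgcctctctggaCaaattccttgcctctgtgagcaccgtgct
Hba-a2: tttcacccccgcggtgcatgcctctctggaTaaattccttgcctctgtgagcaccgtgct
Hbb-bs: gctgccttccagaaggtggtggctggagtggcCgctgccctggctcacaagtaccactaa
Hbb-bt: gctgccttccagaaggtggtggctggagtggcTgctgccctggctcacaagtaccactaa

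Of the 455 windows of 100 bases in the Hba-a2 transcript, which is the length of 1 read of a pair, 339 (74.5%) also occur in Hba-a1. Of the 604 windows in the Hbb-bt transcript, 331 (54.8%) also occur in Hbb-bs. No window of 100 bases was shared by Hba-a1 and Hbb-bs, and their longest common run was 14 bases. The split between the copies of a pair therefore depends in part on how the authors' software shared out reads that match both, whereas α-globin and β-globin can be told apart read by read.

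The bases before the RefSeq start of Hba-a1, Hbb-bs and Alas2 are shown as a description. They are the 150 bases upstream of the RefSeq start on GRCm38.p6, from chr11:32283522-32283671 (plus strand) for Hba-a1, chr7:103827929-103828078 (minus strand) for Hbb-bs and chrX:150547267-150547416 (plus strand) for Alas2. Capitals mark matches, on either strand, to GATAA, the core that GATA factors bind, to CCNCNCCC, the motif of Krüppel-like factors, to CCAAT and to ATATAA.
Hba-a1: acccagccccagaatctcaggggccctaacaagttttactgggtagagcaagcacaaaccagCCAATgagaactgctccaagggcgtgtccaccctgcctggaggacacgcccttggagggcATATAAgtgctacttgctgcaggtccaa
Hbb-bs: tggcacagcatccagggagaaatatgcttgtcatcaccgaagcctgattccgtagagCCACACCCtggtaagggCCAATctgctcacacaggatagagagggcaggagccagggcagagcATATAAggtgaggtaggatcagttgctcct
Alas2: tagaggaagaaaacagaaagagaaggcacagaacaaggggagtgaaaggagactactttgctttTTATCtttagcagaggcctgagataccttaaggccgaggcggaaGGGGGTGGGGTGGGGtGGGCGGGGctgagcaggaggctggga

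The set of RefSeq windows used here covered 5 of the 6 genes, all but Slc4a1. GENCODE starts these genes further upstream, so its gene spans include the whole Hba-a1 and Hbb-bs windows and the end of the Alas2 window. All 4 globin windows held CCAAT and ATATAA, which occurred in 24.5% and 5.35% of the 32851 windows of the same length. CCNCNCCC occurred in both β-globin windows and, with 4 matches of which 3 overlap, in the Alas2 window, and in 38.1% of all windows. GATAA was matched in Alas2 alone among the 5 windows and in 13.3% of all windows. A match describes the letters only.

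Hba-a1, an α-globin gene, measured 7.43, 67.1, 32.7, 21.4 and 70.3 CPM (counts per 1000000 of the TMM-adjusted library total) in saline mice 1 to 5. After CD95-Ab it measured 226, 1647, 8226, 5729 and 1053 CPM in mice 1 to 5. The groups did not overlap, and the highest and the lowest mouse after CD95-Ab, mice 3 and 1, were 36.4-fold apart. The mean was 39.8 ± 27.9 CPM (SD, n = 5) in controls and 3376 ± 3441 CPM (SD, n = 5) after CD95-Ab, a log2 fold change of 6.41 with a standard error (SE) of 1.02.

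Hba-a2, the second α-globin gene, measured 8.52, 59.1, 28.1, 22.6 and 54.3 CPM in saline mice 1 to 5. After CD95-Ab the levels were 247, 1688, 8236, 4943 and 1224 CPM. Mouse 3 was again the highest and mouse 1 the lowest, with no overlap between the groups. On the log2 scale the difference was 6.56 (SE 0.96).

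Hbb-bs, the β-globin gene with the most counts, measured 11.9, 89.0, 46.0, 33.5 and 52.8 CPM in saline mice 1 to 5 and 432, 2907, 13519, 7496 and 2272 CPM in CD95-Ab mice 1 to 5. The lowest CD95-Ab mouse stood above the highest control. The mean was 46.7 ± 28.3 CPM in controls and 5325 ± 5267 CPM after CD95-Ab (SD, n = 5 each), a log2 fold change of 6.83 (SE 0.93).

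Hbb-bt, the second β-globin gene, measured 3.58, 25.4, 14.9, 10.5 and 20.9 CPM in saline mice 1 to 5 and 85.9, 671, 3598, 2218 and 637 CPM in CD95-Ab mice 1 to 5. It had the same order of mice after CD95-Ab as the other globin genes, which was 3, 4, 2, 5 and 1 from high to low. The groups differed by 6.58 on the log2 scale (SE 0.96), without overlap.

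**Figure D1:**
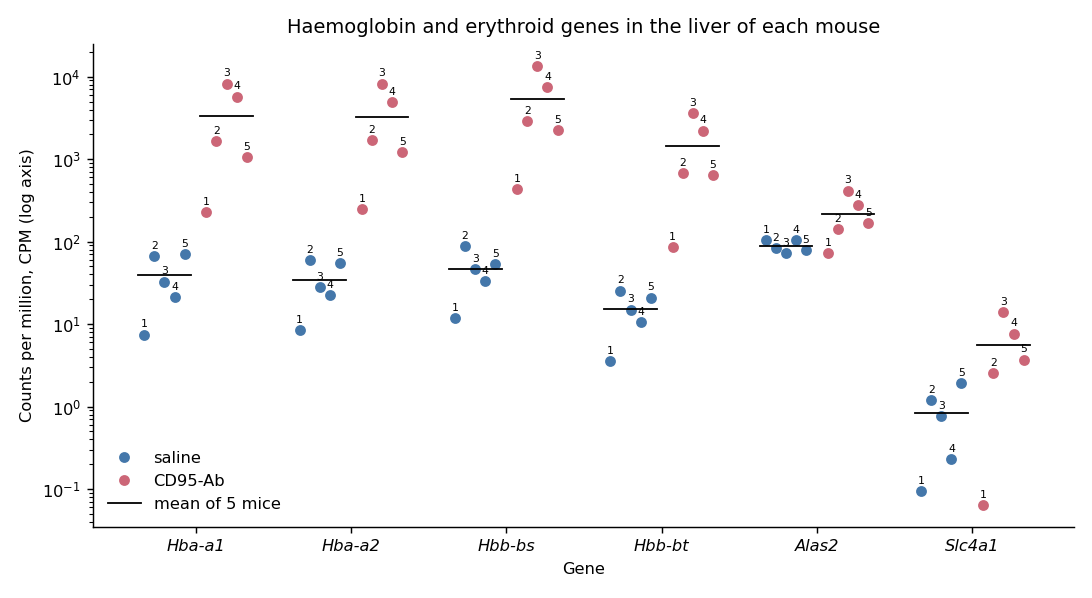
CPM (log axis) of the 6 genes in each of 5 saline-injected and 5 CD95-Ab-injected mice, with the mouse number above each point and the group mean as a bar. The 4 globin genes do not overlap between groups, whereas for Alas2 (72.7 CPM) and Slc4a1 (0.0642 CPM) CD95-Ab mouse 1 sits beside the lowest controls.

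Summed over the 4 globin genes, the level was 31.5, 241, 122, 88.1 and 198 CPM in saline mice 1 to 5. In CD95-Ab mice 1 to 5 the sum was 991, 6913, 33579, 20386 and 5185 CPM. The highest liver was 33.9-fold above the lowest after CD95-Ab and 7.65-fold above it in the controls, so mice of 1 group differed widely in both groups. The log2 fold change of the sum, as the difference between group means of log2 CPM, was 6.10 (SE 1.02), and 6.83 without CD95-Ab mouse 1. The values of the single genes come from a fitted model and are not directly comparable with it. In bulk liver RNA, more cells of a type and more RNA per cell cannot be told apart.

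Without the globin genes in the library totals, the log2 fold change of the sum stayed at 6.10. In the liver with the highest share, CD95-Ab mouse 3, globin mRNA amounted to 3.09% of the counts of all other genes, against 0.112% in CD95-Ab mouse 1.

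The balance of α-globin to β-globin counts was close to even in most livers. The ratio was 1.03, 1.10, 0.997, 1.0 and 1.69 in saline mice 1 to 5 and 0.915, 0.932, 0.962, 1.10 and 0.783 in CD95-Ab mice 1 to 5. Saline mouse 5, the most deeply sequenced library, stood apart with 1.69. Ratios are given as description only, since both of their terms were used to choose the genes.

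Hba-a1 and Hba-a2 had nearly equal counts, with ratios from 0.873 to 1.29 in controls and from 0.860 to 1.16 after CD95-Ab. Per length, as FPKM (fragments scaled for gene length and library total), Hba-a1 was lower than Hba-a2 in every liver but saline mouse 5. The mean ratio was 0.838 ± 0.134 in controls and 0.761 ± 0.088 after CD95-Ab (SD, n = 5 each). This ratio depends on the transcript lengths that the authors used, which are not known here. The transcripts used by GENCODE are 699 and 554 bases long. Hbb-bs exceeded Hbb-bt in every liver, by a count ratio of 2.52 to 3.50 in controls and 3.38 to 5.02 after CD95-Ab, and these ranges overlapped.

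Alas2, the erythroid aminolevulinate synthase, lies on the X chromosome (ENSMUSG00000025270, chrX:150547375-150570638, plus strand). It measured 103, 82.8, 73.2, 105 and 79.1 CPM in saline mice 1 to 5. In CD95-Ab mice 1 to 5 it measured 72.7, 141, 415, 277 and 168 CPM. Mice 2 to 5 after CD95-Ab were above every control, and mouse 1 was close to the lowest control, saline mouse 3. The order of these 2 livers depends on the scaling, with 72.7 and 73.2 CPM but 42.3 and 39.2 FPKM. The mean was 88.7 ± 14.6 CPM in controls and 215 ± 134 CPM after CD95-Ab (SD, n = 5 each), with a log2 fold change of 1.28 (SE 0.37).

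In control livers the FPKM of Alas2 was on the scale of a single globin gene. It was below the summed FPKM of the 4 globin genes in every control except saline mouse 1. In CPM, Alas2 also exceeded the sum in saline mouse 4, with 105 against 88.1 CPM. The summed globin FPKM was 0.952 to 8.97 times that of Alas2 in controls and 42.4 to 228 times after CD95-Ab. Per length, the mean level in controls was 49.8 ± 8.21 FPKM for Alas2 and 67.2 ± 45.5 FPKM for Hbb-bs (SD, n = 5 each). After CD95-Ab the mean levels were 113 ± 66.7 FPKM for Alas2 and 6677 ± 6337 FPKM for Hbb-bs (SD, n = 5 each). In counts, Alas2 gave 3290, 344, 602, 1194 and 399 per 1000 globin counts in saline mice 1 to 5, and 73.3, 20.3, 12.4, 13.6 and 32.4 in CD95-Ab mice 1 to 5. Every CD95-Ab liver had less Alas2 per globin count than every control. Alas2 also varied less among controls (1.44-fold between the highest and the lowest) than the globin sum did, and its order there, mice 4, 1, 2, 5 and 3 from high to low, was not that of the globin sum, mice 2, 5, 3, 4 and 1.

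Alas2 lies within the span of Apex2, a DNA repair gene annotated on the opposite strand (chrX:150519519-150589868). Apex2 measured 4.54 to 6.62 CPM after CD95-Ab and 5.93 to 9.54 CPM in controls, far below Alas2, with a log2 fold change of -0.54 (SE 0.18, FDR 0.0277, edgeR quasi-likelihood test). Whether the libraries kept strand is not stated in the sources used here, so reads of the 2 genes cannot be told apart by strand.

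Slc4a1, the band 3 gene (ENSMUSG00000006574, chr11:102348824-102366203, minus strand), had few counts. Saline mice 1 to 5 gave 4, 40, 27, 6 and 104 counts, or 0.0941, 1.19, 0.761, 0.231 and 1.93 CPM. CD95-Ab mice 1 to 5 gave 2, 79, 354, 190 and 167 counts, or 0.0642, 2.52, 14.1, 7.67 and 3.70 CPM. Again mice 2 to 5 after CD95-Ab were above every control. Mouse 1, with 2 counts, cannot be ranked against saline mouse 1, with 4 counts, and both were listed at 0.02 FPKM. Its log2 fold change was 2.68 (SE 0.93), and 1.98 without CD95-Ab mouse 3.

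Set against globin, Slc4a1 gave 2.99, 4.93, 6.25, 2.62 and 9.72 counts per 1000 globin counts in saline mice 1 to 5. In CD95-Ab mice 2 to 5 it gave 0.364, 0.420, 0.376 and 0.713. In CD95-Ab mouse 1 the ratio was 0.0648, from 2 counts, with an exact 95% Poisson interval of 0.00784 to 0.234 that covers counting error only. All 5 CD95-Ab livers thus had less Slc4a1 per globin count than the controls.

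By the criteria applied to all genes, 4 of the 6 genes had every CD95-Ab liver above every control, where 18.6% of the 13719 tested genes did. All 6 were called higher at an FDR of 0.05 or less, where 25.4% of tested genes were, and 5 of them, all but Alas2, also reached 2 on the log2 scale, where 6.59% did. These counts follow from how the genes were chosen. The median log2 fold change of all tested genes was 0.006.

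Most other members of the globin family were at or near 0. Hba-x, Hbb-bh1 and Hbb-bh2, globin genes of the embryo, and Mb, the myoglobin gene of muscle, had 0 counts in every mouse. Hbb-y, another embryonic globin gene, had 3 counts, all in CD95-Ab mouse 3. Hbq1a, a θ-globin gene, had 2, 9, 16, 22 and 8 counts in CD95-Ab mice 1 to 5 and 0, 3, 0, 0 and 3 in saline mice 1 to 5. Its near copy Hbq1b had 0, 7, 12, 8 and 2 counts after CD95-Ab and 0, 3, 0, 0 and 1 in controls. Neither reached the depth to be tested.

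Cygb, cytoglobin of stellate cells, was the only other globin gene tested, with 3.98 ± 0.844 CPM in controls and 5.81 ± 1.38 CPM after CD95-Ab (SD, n = 5 each), a log2 fold change of 0.54 (FDR 0.0442, edgeR). The call was lost under 11 of 17 alternative settings, among them the omission of any of saline mice 1, 3, 4 or 5 or CD95-Ab mice 1, 2 or 3. Ngb, the globin of neurons, had 37 counts over the 10 mice.

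Heme synthesis genes other than Alas2 did not follow the globin genes. Of 13 tested genes of the pathway and of mitochondrial import, 1 was higher, 6 were lower and 6 were not called after CD95-Ab. Their median log2 fold change was -0.40. Among all tested genes, 25.4% were higher and 22% lower. The increase was in Slc25a37 (mitoferrin 1, the iron importer of erythroid mitochondria), from 42.4 ± 14.0 to 88.3 ± 26.3 CPM, a log2 fold change of 1.06 (FDR 0.00454, edgeR). Abcb6, a porphyrin transporter, fell by 0.83 on the log2 scale (FDR 0.00011, edgeR). Tmem14c, a mitochondrial protein needed for late heme synthesis, fell by 0.74 (FDR 0.0013, edgeR), and Urod, an enzyme of the middle of the pathway, fell by 0.49 (FDR 0.00417, edgeR). Uros, the enzyme that closes the porphyrin ring, fell by 0.39 (FDR 0.0371, edgeR), a call lost without any of saline mice 2, 4 or 5 or CD95-Ab mice 1, 2 or 3.

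Abcb10, which partners mitoferrin, fell by 0.49 (FDR 0.0217, edgeR), a call lost without saline mouse 1 or CD95-Ab mouse 2 and with unadjusted totals. Alas1, the housekeeping form of the enzyme that Alas2 makes in erythroid cells, was at 244 ± 123 CPM in controls and 211 ± 84.5 CPM after CD95-Ab (SD, n = 5 each), with a log2 fold change of -0.21 and an FDR of 0.668 (edgeR). Fech, which inserts the iron into heme, was at 109 ± 14.8 and 90.1 ± 12.3 CPM (log2 fold change -0.27, FDR 0.118, edgeR). Alad, which makes porphobilinogen, was at 81.7 ± 15.7 and 59.1 ± 16.6 CPM (log2 fold change -0.47, FDR 0.0605, edgeR). Enzymes of heme synthesis are also made by hepatocytes.

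Genes of the red cell membrane and skeleton were mostly scarce in the liver. Of 20 listed genes 12 were tested, of which 5 were higher, 0 were lower and 7 were not called, against 25.4% higher and 22% lower among all tested genes. The list median was 0.64 on the log2 scale. The genes Slc2a1, Aqp1 and Xk, called higher in this list, are not specific to red cells. Slc2a1, the glucose transporter GLUT1, rose from 10.3 ± 2.70 to 59.6 ± 28.6 CPM (log2 fold change 2.54, FDR 8.57e-05, edgeR). Aqp1, a water channel that endothelium also makes, rose from 27.8 ± 12.6 to 63.7 ± 21.3 CPM (log2 fold change 1.2, FDR 0.00835, edgeR). Xk, a membrane protein of the Kell complex, rose from 4.41 ± 0.692 to 6.28 ± 1.49 CPM (log2 fold change 0.52, FDR 0.0351, edgeR), a call lost under 8 of 17 settings, among them the omission of any of saline mice 1, 2 or 5 or CD95-Ab mice 4 or 5. Epb41, a protein of the membrane skeleton, was at 96.6 ± 13.9 and 112 ± 37.7 CPM (log2 fold change 0.21, FDR 0.40, edgeR), and Cd47, a surface protein of many cells, at 46.3 ± 10.5 and 60.7 ± 17.0 CPM (log2 fold change 0.39, FDR 0.175, edgeR). Gypc, glycophorin C, was at 4.5 ± 0.270 and 3.32 ± 0.931 CPM (log2 fold change -0.44, FDR 0.0833, edgeR).

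Genes kept late in red cell development split between directions. Of 13 tested genes of the reticulocyte and late erythroblast list, 5 were higher, 4 were lower and 4 were not called. Over all tested genes, 25.4% were higher and 22% lower. The median log2 fold change of the list was 0.06. Bpgm makes bisphosphoglycerate, which lowers the oxygen affinity of hemoglobin. It gave 6.09, 8.45, 8.76, 9.77 and 5.77 CPM in saline mice 1 to 5 and 10.2, 37.6, 144, 85.6 and 39.5 CPM in CD95-Ab mice 1 to 5. CD95-Ab mouse 1 stood just above the highest control. Its log2 fold change was 3.03 (SE 0.55, FDR 0.000857, edgeR).

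Isg20, an exonuclease, rose from 1.49 ± 0.443 to 16.2 ± 8.31 CPM (log2 fold change 3.43, FDR 2.69e-05, edgeR). Ube2o, the ubiquitin ligase that remodels reticulocytes, rose from 7.42 ± 0.747 to 20.6 ± 8.84 CPM (log2 fold change 1.47, FDR 0.000625, edgeR). Mkrn1, another ubiquitin ligase, rose from 16.7 ± 1.51 to 40.8 ± 23.8 CPM (log2 fold change 1.29, FDR 0.00682, edgeR). Car1, carbonic anhydrase 1 of red cells, went the other way, with 5.05 ± 1.06 CPM in controls and 2.62 ± 1.01 CPM after CD95-Ab, and fell by 0.95 on the log2 scale (FDR 0.0106, edgeR). Bnip3l, needed to clear mitochondria from reticulocytes, was at 77.3 ± 10.5 and 80.5 ± 20.5 CPM (log2 fold change 0.06, FDR 0.801, edgeR). Prdx2, a red cell peroxiredoxin, was at 77.3 ± 9.33 and 61.5 ± 10.6 CPM (log2 fold change -0.33, FDR 0.0701, edgeR).

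Some erythroid genes were too scarce to test but had their highest values in the same livers. Trim10, a gene of late erythroblasts, had 3, 17, 118, 82 and 49 counts in CD95-Ab mice 1 to 5 and 1, 2, 4, 3 and 11 in saline mice 1 to 5. Epb42, another protein of the membrane skeleton, had 0, 8, 35, 21 and 25 counts after CD95-Ab and 0, 4, 4, 0 and 18 in controls. Tspo2, an erythroid transport protein, had 0, 8, 37, 27 and 13 counts after CD95-Ab and 0, 2, 0, 1 and 12 in controls. Icam4 and Slc14a1 of the membrane list, also too scarce to test, were lower on average after CD95-Ab, with overlap between the groups. Icam4 went from 0.199 to 0.052 CPM and Slc14a1 from 0.406 to 0.299 CPM. All these genes were named after their values were seen.

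**Figure D2:**
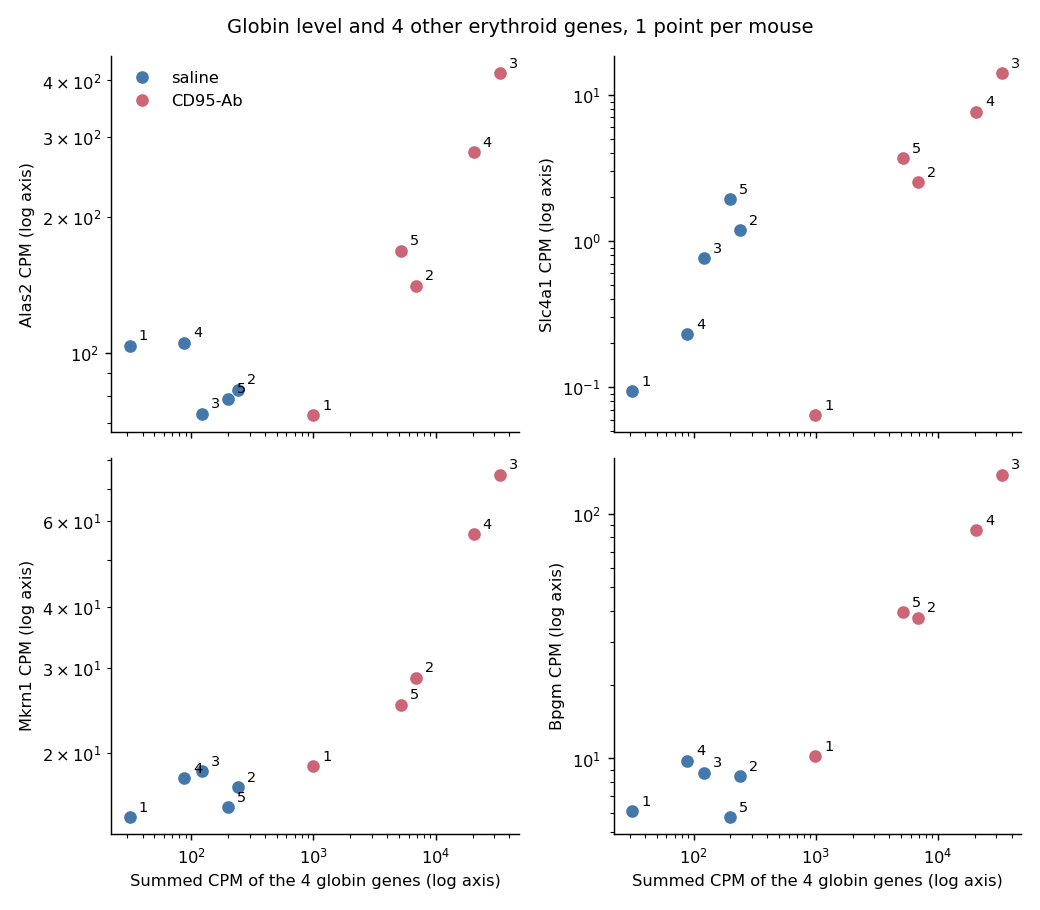
Level in CPM (log axes) of Alas2, Slc4a1, Mkrn1 and Bpgm against the summed CPM of the 4 globin genes, with 1 numbered point per mouse and n = 5 mice per group. In mice 2 to 5 after CD95-Ab all 4 genes are above the controls, whereas CD95-Ab mouse 1, with 991 CPM of globin, sits beside the lowest controls for Alas2 and Slc4a1.

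Among CD95-Ab mice, the order from high to low was 3, 4, 5, 2 and 1 for Alas2, Slc4a1, Bpgm and Trim10. It was 3, 4, 2, 5 and 1 for the globin genes, Mkrn1 and Ube2o, so between these genes only mice 2 and 5 changed places. Isg20 had another order, 3, 4, 2, 1 and 5. Relative to globin, Bpgm gave 29.1 to 194 counts per 1000 globin counts in controls and 4.20 to 10.3 after CD95-Ab, which did not overlap.

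Regulators of red cell formation and early erythroid markers also split. Of 10 tested genes 3 were higher, 4 were lower and 3 were not called, against 25.4% higher and 22% lower among all tested genes. The median log2 fold change of this list was -0.10. Epor, the erythropoietin receptor, gave 33, 20, 13, 15 and 47 counts in saline mice 1 to 5 and 1, 2, 7, 1 and 5 in CD95-Ab mice 1 to 5. Every CD95-Ab liver was below every control, as for 14.7% of all tested genes. Epor fell by 2.61 on the log2 scale (SE 0.48, FDR 0.000911, edgeR), and by 3.23 without CD95-Ab mouse 3. Klf1, the erythroid Krüppel-like factor that drives β-globin, gave 1.37 ± 0.246 CPM in controls and 0.530 ± 0.205 CPM after CD95-Ab, also without overlap, and fell by 1.40 (FDR 0.00178, edgeR).

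Ldb1, a cofactor in GATA complexes, fell by 0.85 (FDR 0.00286, edgeR). Lmo2, its partner, rose from 1.85 ± 0.630 to 4.64 ± 0.752 CPM (log2 fold change 1.32, FDR 0.000859, edgeR). Nfe2, a factor of erythroid and megakaryocyte lineages that neutrophils also make, rose from 0.384 ± 0.230 to 2.51 ± 0.633 CPM (log2 fold change 2.70, FDR 9.59e-05, edgeR), and Kit, the stem cell factor receptor, rose from 2.06 ± 1.42 to 8.97 ± 2.64 CPM (log2 fold change 2.10, FDR 0.00129, edgeR). Tfrc, the transferrin receptor, was at 26.3 ± 17.7 and 28.0 ± 7.03 CPM (log2 fold change 0.09, FDR 0.852, edgeR). Gata1, the main erythroid transcription factor, had 42 counts over the 10 mice and was not tested, and it was named after its values were seen.

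Together, the other erythroid lists held 35 tested genes of 53, of which 13 were higher, 8 were lower and 14 were not called, where the background is 25.4% higher and 22% lower. The list median was 0.40 on the log2 scale. Among the genes described here, the 4 globin genes, Isg20, Bpgm, Nfe2, Slc4a1, Slc2a1 and Kit had log2 fold changes above 2.

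**Figure D3:**
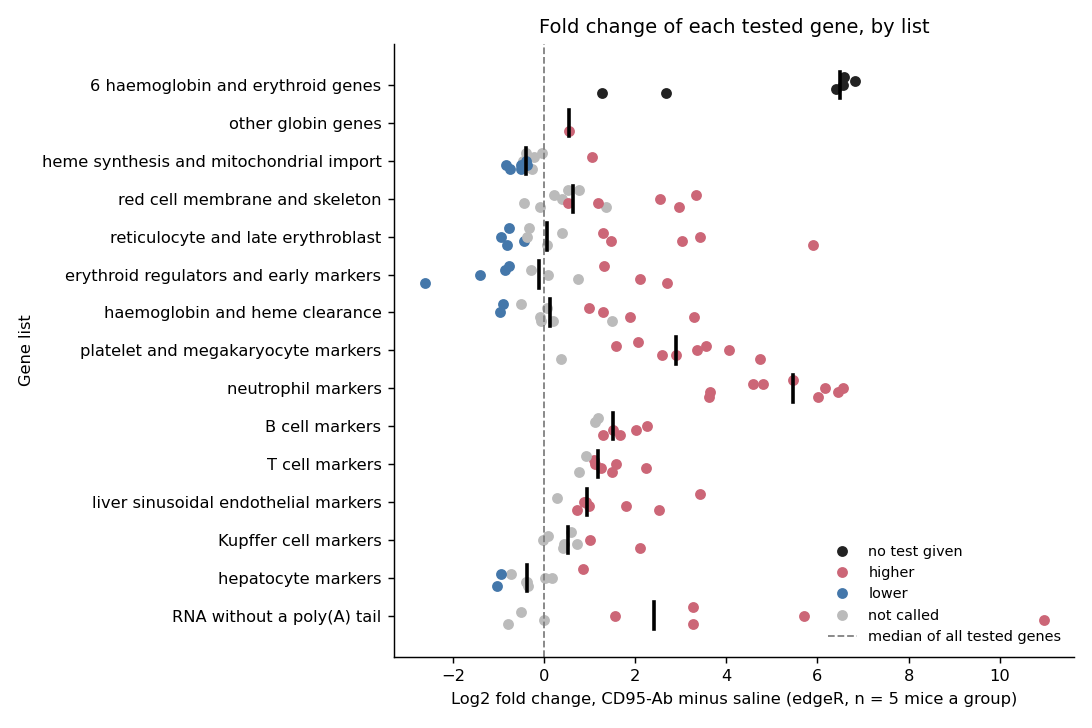
Log2 fold change of each tested gene (points, n = 5 mice per group) by gene list, with the list median as a black bar and the median of all tested genes, 0.006, as a dashed line. The 4 globin genes sit between 6.41 and 6.83, the heme synthesis list has a median of -0.40, and the neutrophil list one of 5.47.

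Markers of other blood cells were also higher in these livers. Of 33 tested markers of platelets, neutrophils, B cells and T cells, 28 were higher, 0 were lower and 5 were not called. Over all tested genes, 25.4% were higher and 22% lower. The median log2 fold change of these markers was 2.24. Their summed level was 17.5 to 42.4 CPM in controls and 164 to 583 CPM after CD95-Ab. It was lowest in mouse 1 and highest in mouse 3, as for globin, but the order between differed. Mouse 5 came next to mouse 3 with 440 CPM, above mouse 4 with 403 CPM, whereas globin was higher in mouse 4. The part of these markers in the globin result was not tested.

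All 9 tested neutrophil genes were higher, at a median of 5.47 on the log2 scale, with a summed level of 4.46 to 11.3 CPM in controls and 115 to 478 CPM after CD95-Ab. S100a9, a calcium-binding protein of neutrophils, rose from 1.83 ± 0.540 to 133 ± 54.2 CPM (log2 fold change 6.16, FDR 6.42e-07, edgeR). Among platelet and megakaryocyte genes 8 of 9 were higher, with a median of 2.91 and a summed level of 7.21 to 14.6 CPM in controls and 30.1 to 78.8 CPM after CD95-Ab. Ppbp, a platelet chemokine, rose from 0.721 ± 0.917 to 7.89 ± 3.65 CPM (log2 fold change 3.36, FDR 0.00283, edgeR), and by 4.54 without saline mouse 5.

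B cell genes were called less uniformly, with 5 of 7 higher and a median of 1.51, and the summed level of 3.47 to 13.7 CPM in controls overlapped the 11.3 to 41.5 CPM after CD95-Ab. Of T cell genes 6 of 8 were higher, with a median of 1.19 and a summed level of 1.89 to 4.71 CPM in controls and 7.17 to 9.0 CPM after CD95-Ab. The highest B cell level was in CD95-Ab mouse 4, not mouse 3. CD95-Ab mouse 1 had 11.3 CPM of B cell markers, within the control range.

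Cells of the liver itself were checked in the same way. Hepatocyte markers summed to between 122020 and 139622 CPM in controls and to between 70549 and 108809 CPM after CD95-Ab. Of 9 tested, 1 was higher, 2 were lower and 6 were not called, and Alb, albumin, fell by 1.03 on the log2 scale (FDR 0.00529, edgeR). Of 8 markers of liver sinusoidal endothelium, which lines the blood space, 7 were higher, among them Lyve1, from 6.72 ± 3.98 to 71.7 ± 32.0 CPM (log2 fold change 3.41, FDR 6.21e-05, edgeR). Of 8 markers of Kupffer cells, the resident macrophages that take up old red cells, 2 were higher and 6 were not called. These counts are to be read against the 25.4% of all tested genes called higher and the 22% called lower.

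**Figure D4:**
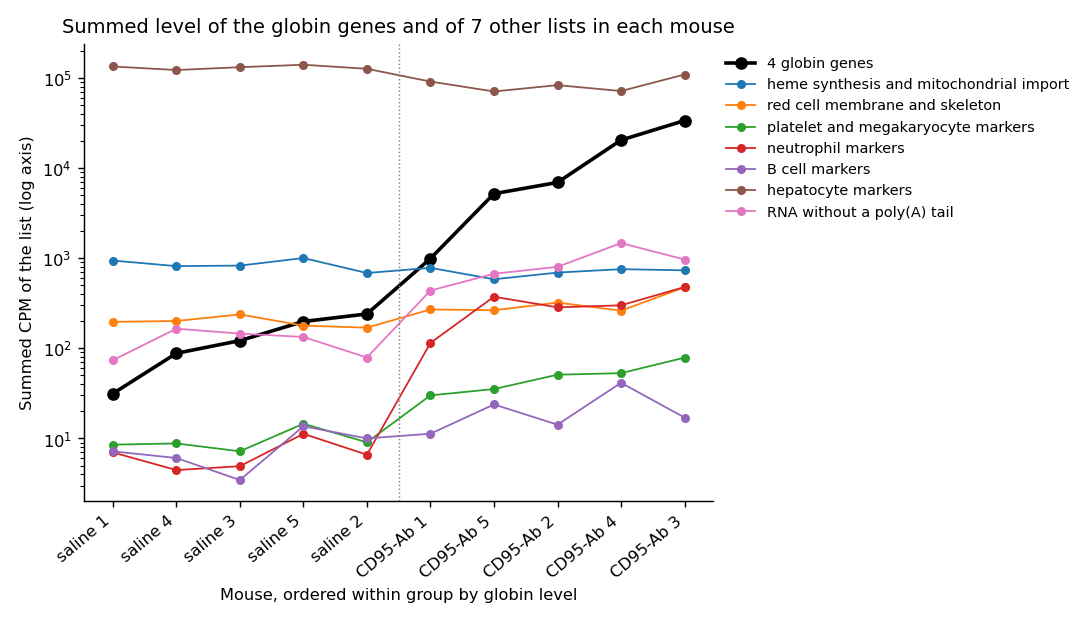
Summed CPM (log axis) of the 4 globin genes and of 7 other gene lists in each mouse, ordered within each group by globin level from low to high. Across the CD95-Ab mice globin ranges from 991 to 33579 CPM and the neutrophil list from 115 to 478 CPM, while the heme synthesis list stays between 583 and 781 CPM.

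Genes that handle free hemoglobin and heme were split. Of 12 tested genes 4 were higher, 2 were lower and 6 were not called, against 25.4% higher and 22% lower among all tested genes. The median log2 fold change of this list was 0.14. Hmox1, heme oxygenase 1, which breaks heme down, rose from 27.2 ± 12.7 to 269 ± 61.4 CPM (log2 fold change 3.30, FDR 7.3e-06, edgeR). Spic, the transcription factor of macrophages that recycle red cell iron, rose from 3.30 ± 1.52 to 12.3 ± 1.88 CPM (log2 fold change 1.89, FDR 0.000348, edgeR), and Hp, haptoglobin, which binds free hemoglobin, rose from 4362 ± 1663 to 10745 ± 1530 CPM (log2 fold change 1.30, FDR 0.00148, edgeR).

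The other 3 calls of this list depended on single mice. Hpx, hemopexin, which binds free heme, rose by 0.98 (FDR 0.0339), Slc40a1, the iron exporter ferroportin, fell by 0.90 (FDR 0.0278) and Cd163, the receptor for haptoglobin with hemoglobin, fell by 0.97 (FDR 0.0497, all edgeR). Hpx lost its call without any of saline mice 3, 4 or 5 or CD95-Ab mice 1 or 2, Slc40a1 without any of saline mice 1 or 2 or CD95-Ab mice 2, 3 or 4, and Cd163 without any of saline mice 2, 3, 4 or 5 or CD95-Ab mice 1, 2 or 4. Fth1, ferritin heavy chain, was at 986 ± 172 and 1040 ± 203 CPM (log2 fold change 0.08, FDR 0.747, edgeR), and Ftl1, ferritin light chain, at 3403 ± 1025 and 2387 ± 481 CPM (log2 fold change -0.51, FDR 0.0817, edgeR).

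RNA species that lack a poly(A) tail differed between the groups as well. Of 8 tested genes 5 were higher and 3 were not called, against 25.4% higher among all tested genes. Rn7s1 and Rn7s2, both among the 5, had identical values (1935 counts each over the 10 mice). They are not separate observations, and both enter the summed level of the list. The summed level of this list was 73.8 to 165 CPM in controls and 437 to 1470 CPM after CD95-Ab. Rn7sk, the 7SK RNA, gave 0.282, 0.385, 0.282, 0.808 and 0.204 CPM in saline mice 1 to 5 and 355, 695, 802, 1301 and 560 CPM in CD95-Ab mice 1 to 5 (log2 fold change 10.96, FDR 1.86e-07, edgeR). It was highest in mouse 4 and lowest in mouse 1, and its part in the globin result was not tested.

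Genes were ranked by how closely their variation within the groups followed that of the summed globins. The measure was Pearson's r of the deviations of log2 CPM from the group means over 10 mice. The 12115 candidates had at least 10 counts in every mouse. They left out the summed globin genes, Alas2 and Slc4a1, but not the other genes of the erythroid lists. None of the 10 closest candidates was in a gene list used here. The closest candidate was Cd9, a tetraspanin of platelets and other cells, with r of 0.92 and levels of 15.9 ± 2.37 and 35.1 ± 7.6 CPM. Fam120aos, Tmem101, Mfsd2b, Hnrnpa0, Bag1, Lsm8, Maf1, Fzd8 and Pik3ip1 followed, with r down to 0.91, and 4 of the 10 were also among the 10 highest by Spearman's rho. Mfsd2b, the sphingosine 1-phosphate exporter of red cells and platelets, was at 0.747 ± 0.441 CPM in controls. By the same measure r was 0.96 for Slc4a1, 0.86 for Bpgm and 0.73 for Alas2. These values describe 10 mice that also differ in depth and in the other cell markers.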

How the data were processed

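RNA sequencing of the liver gave 1 table for each of 10 mice. Groups and replicate numbers were read from the sample labels. The authors estimated gene levels with RSEM version 1.2.19, whose model shares out reads that match several genes. The deposited tables give, per gene, its expected count, a whole number without normalization that was used as it stands, and its FPKM. FPKM, which the authors scaled for transcript length and library total, served to compare levels between genes. The mouse annotation and genome build used by the authors, and whether libraries kept strand, are not given in the sources used here. Symbols and positions came from GENCODE mouse release 21 for 37606 of 38922 identifiers. Library totals were 25965699 to 62097636 counts, at which 3 counts are 0.048 to 0.116 CPM.

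The filter was filterByExpr of edgeR 4.0.16 (R 4.3.3), with its minimum of 10 counts. After TMM scaling, the quasi-likelihood test of the same package compared both groups, with no other term in the model. FDR values are Benjamini-Hochberg over all 13719 tested genes, and the thresholds, an FDR of 0.05 and a log2 fold change of 2, are those of the study. CPM are counts per 1000000 of the TMM-scaled total, and each SE of a single gene was taken from the F statistic. Outside DESeq2, the log2 fold change of the globin sum is the difference between group means of log2 CPM. Its SE comes from the spread over mice, so it is not the same measure as the fitted change of a single gene. In the design written first, expected counts were to be rounded, which was not needed. Alternatives were other scaling factors, other filters, DESeq2 1.42.0, the replicate number as a block, a larger prior count, FPKM ratios, and each mouse left out in turn. Tables and figures were made with Python 3.11.15, pandas 2.3.3, scipy 1.17.1 and matplotlib 3.10.9. On simulated counts for 13719 genes, 58% of the genes altered by 1 on the log2 scale and 96% of those altered by 3 were recovered, while 5.52% of calls fell on unaltered genes.

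The members and gene lists were chosen with earlier results of these data known, and some lists hold genes that several cell types express. Named genes were the 6 genes themselves, other globin genes, up to 6 called genes with the largest change and up to 3 uncalled genes with the highest level in each list, and the 10 genes most like the summed globins. Not every gene that meets this rule is given, and values of some listed genes are not reported here. Of the listed genes, Hbb-b1, Hbb-b2, Ahsp and Ighd were not matched and were not analysed here. No 2 mice of a group agreed within sampling noise.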

Additional observations from a re-analysis of the deposited data

Results flagged for a closer look

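In 54 groups of 5 mice, chance alone would put about 1 in 20 beyond the limit used, and 5 values lay beyond it. Saline mouse 5 had an α-globin to β-globin count ratio of 1.69, above the 0.997 to 1.10 of the other controls. Saline mouse 1 had 3290 Alas2 counts per 1000 globin counts, and it also had the lowest globin level of all mice, 31.5 CPM. CD95-Ab mouse 3 had a summed level of 475 CPM for genes of the red cell membrane and skeleton, above the other 4 mice of its group. Saline mouse 5 had a summed level of 150 CPM for erythroid regulators and early markers and of 14.6 CPM for platelet and megakaryocyte markers, the highest of the controls in both. The reasons for these values were not tested.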

How the results depend on the processing

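The direction of the summed globin genes, Alas2 and Slc4a1 held in every setting tried. With each mouse left out in turn, the log2 fold change ranged from 5.56 to 6.83 for the globin sum, from 0.89 to 1.5 for Alas2 and from 1.98 to 3.27 for Slc4a1. The number of all genes called ranged from 5616 to 6977, of other erythroid genes called higher from 12 to 16, of heme synthesis genes called from 5 to 9, and of blood cell markers called higher from 25 to 33. Requiring at least 10 counts in every mouse left 12 blood cell markers called higher instead of 28, since fewer markers were tested. Slc4a1 was not tested under that requirement. DESeq2 called 17 other erythroid genes and 37 blood cell markers higher and gave 6.60 for the globin sum. Replicate numbers did not pair the mice, as the correlation of same-numbered mice ranged from -0.27 to 0.26 and 2 of 5 numbers were best matched with themselves. With the replicate block the log2 fold change was 1.05 for Alas2 and 2.39 for Slc4a1, with 5987 genes called. In that setting 12 other erythroid genes and 26 blood cell markers were called higher. The block does not enter the globin sum, a difference of group means, so its 6.10 there is no check. Of the genes in the lists, 53 of 62 called higher, 14 of 18 called lower and 27 of 47 not called kept their call in all settings. The ratio of Hba-a1 to Hba-a2 moved from 1.08 in counts to 0.838 in FPKM in controls and from 0.982 to 0.761 after CD95-Ab, and that of α-globin to β-globin from 0.938 to 1.18 after CD95-Ab. Depth limits Slc4a1, which had fewer than 10 counts in some mice, and Epor, which had fewer than 10 in every CD95-Ab mouse.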
